A study of Drosophila melanogaster with 76 samples.

Results

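The genes described here encode subunits of the oxidative phosphorylation machinery of Drosophila melanogaster. They were chosen by symbol, as genes of the fly table that start with ND-, UQCR-, COX or ATPsyn, which gave 83 of 14251 genes. Of these, 80 lie on the nuclear chromosomes, and COX1, COX2 and COX3 lie on the mitochondrial genome. The nuclear genes divide into 40 of complex I (ND-), 9 of complex III (UQCR-), 16 of complex IV (COX) and 15 of complex V (ATPsyn). By symbol, 59 are subunits, and 21 are paralogs, copies whose name is that of a subunit followed by L, with or without a digit. Of the paralogs, 4 (COX6AL, COX6AL2, COX6CL and ATPsynepsilonL) are copies of subunits that carry other names in flies.

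Complex I takes electrons from NADH, complex III passes them from ubiquinol to cytochrome c, and complex IV passes them to oxygen. The protons these complexes pump across the inner mitochondrial membrane drive complex V, the ATP synthase. Most subunits are encoded in the nucleus and a core of them in the mitochondrial genome, and the embryo inherits mitochondria and much subunit mRNA from the mother. Many duplicated copies of such genes in flies are known for expression in the testis.

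The series used ChIP-seq, which maps where proteins sit on chromatin, to study IntS11, the RNA-cleaving subunit of the Integrator complex. Mutant and wild-type (WT) embryos were labelled 1–1.5 h or 2.5–3 h and probed with 4 antibodies. Zelda and GAF are transcription factors that help make chromatin accessible at the onset of zygotic transcription, Pol II is RNA polymerase II, and pSer5 is Pol II carrying phosphate on serine 5 of its tail repeats, as found soon after initiation. Larvae labelled 48AEL, either ZygoticMutant or WT, were probed for Pol II, and IntS11 itself was mapped in WT embryos of both stages. Each of these 20 groups has 2 peak lists, which give positions on build dm6 without heights or reads. Titles of Mutant and of WT embryo samples alike carry the words IntS11 mislocalized, so genotype was read from Mutant and WT. The series also holds IntS11 ChIP-seq samples of both stages titled IntS11 mislocalized without Mutant or WT, which were not used here. The alleles, the driver and the host strain are not given in the sources used here. The ChIP reactions were run in duplicate, and nothing says that the duplicates came from separate collections, so p-values measure only the spread between these lists.

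A gene is called bound in a group when a peak of both lists overlaps the 500 bp either side of one of its ends. Between 2 groups a gene is lost when both lists of the second and neither of the first have a peak, kept when all 4 have one, and gained in the case opposite to lost. The lists held 1276 to 12202 peaks, and their depth is unknown. Whole embryos and larvae were used, so fewer bound cells and less binding per cell cannot be told apart. Of the 80 nuclear genes, 65 have windows that touch those of another gene, so that a peak there can belong to the neighbour. The 15 that stand apart are 13 paralogs and the subunits UQCR-11 and ND-AGGG. The median member spans 1091 bp, against 2106 bp over all genes. Of 8 early embryo marker genes (nullo, bnk, Sry-alpha, slam, eve, ftz, sc and sisA), 0 were bound by Pol II in WT larvae and 8 in WT embryos at 1–1.5 h. Of 5 muscle genes, 3 were bound in WT larvae and 0 in WT embryos at 2.5–3 h, while of 8 larval cuticle and serum protein genes 1 was bound in WT larvae, and of 4 gut enzyme genes 0 were.

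In WT embryos the subunit genes were occupied by the transcription machinery at both stages. Pol II was bound at 52 of the 80 members at 1–1.5 h, where it was bound at 45.8% of all genes, and at 62 at 2.5–3 h, against 51.8% of all genes. The serine 5 form was bound at 58 members at 1–1.5 h (all genes 53.3%) and at 66 at 2.5–3 h (all genes 60.6%). Zelda was bound at 48 members at 1–1.5 h (all genes 45.5%) and at 48 at 2.5–3 h (all genes 42.6%). GAF was bound at 21 members at 1–1.5 h (all genes 28.2%) and at 31 at 2.5–3 h (all genes 31.5%). The members' shares were above those of all genes for Pol II, pSer5 and Zelda at both stages, and for GAF below at 1–1.5 h and above at 2.5–3 h. All 21 members bound by GAF at 1–1.5 h were also bound by Zelda, as were 89.4% of all genes bound by GAF, and 28 of 31 were at 2.5–3 h (87.3% of genes).

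**Figure D1:**
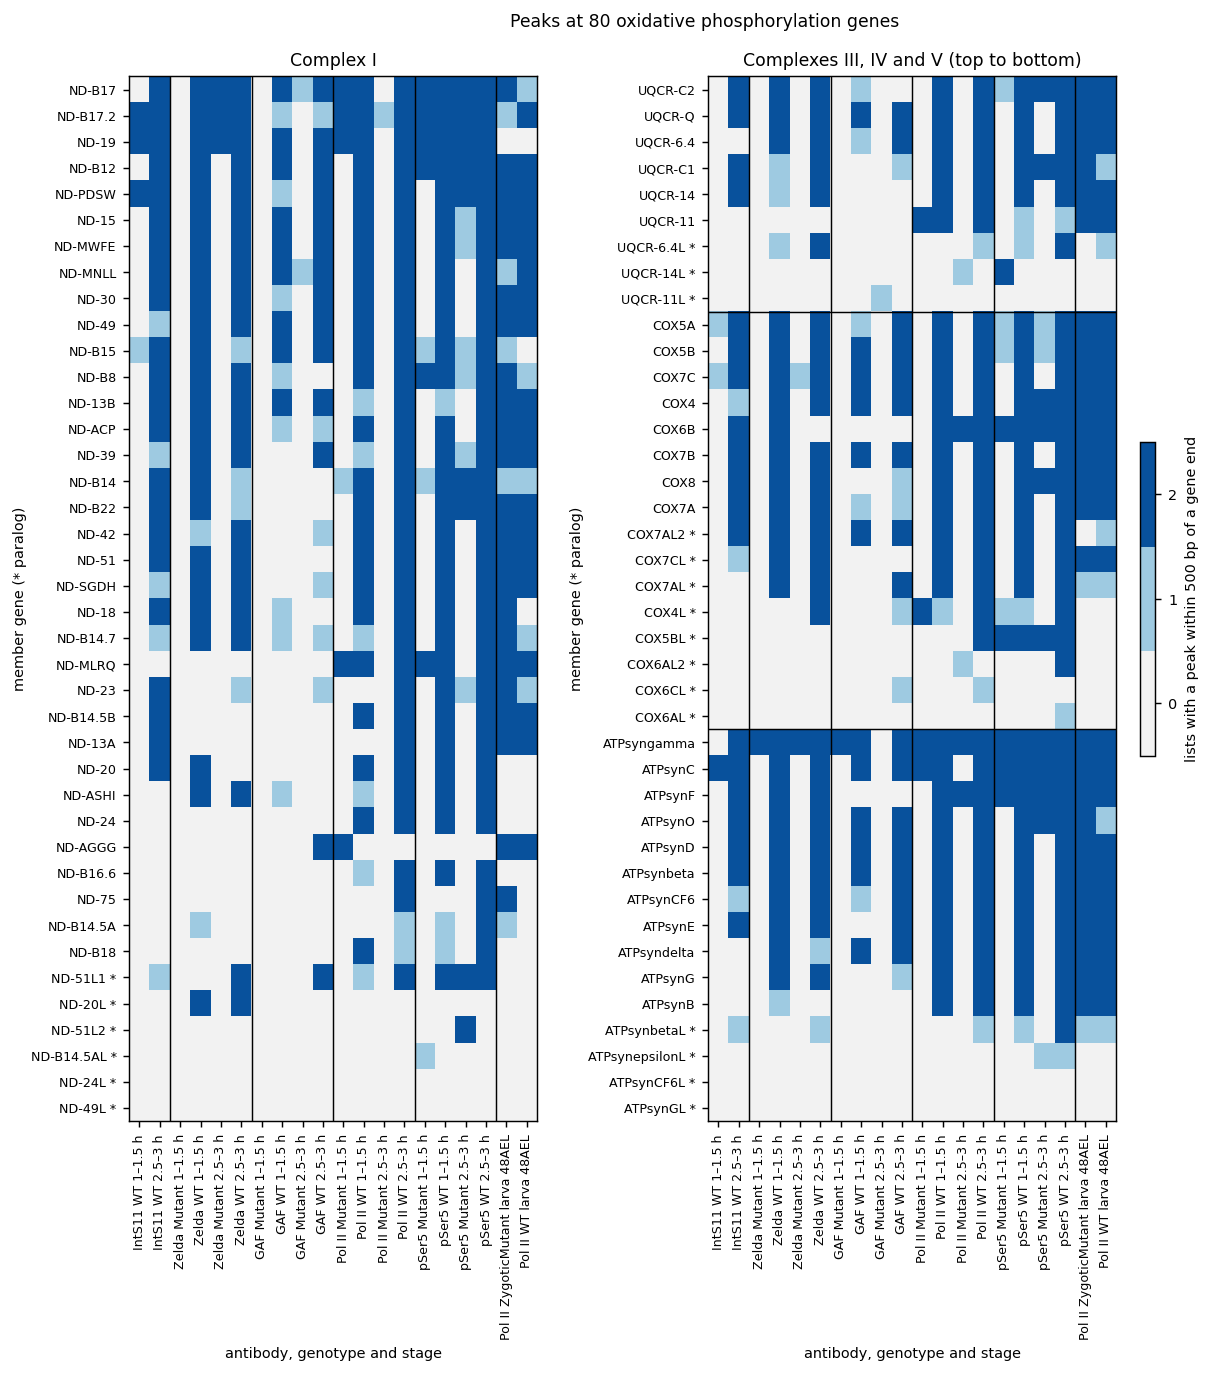
Number of peak lists (0, 1 or 2) with a peak within 500 bp of an end of each of the 80 nuclear genes (rows, by complex) in the 20 groups (columns), with each mutant column left of its WT column. Subunits fill most WT columns and starred paralogs few, while mutant embryo columns hold 0 to 19 bound members, the most with pSer5 at 2.5–3 h.

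Paralogs were bound in fewer WT groups than subunits, which was described and not tested. The 59 subunits were bound in a median of 8 of the 11 WT groups (range 1 to 11), and the 21 paralogs in a median of 0 (range 0 to 9). At 2.5–3 h Pol II was bound at 56 of 59 subunits and at 6 of 21 paralogs in WT embryos. In WT larvae it was bound at 42 subunits and at 1 paralog. The paralogs bound most widely were COX7AL2, a copy of COX7A, in 9 of 11 WT groups, and COX7AL and COX7CL in 7 each. COX7CL shares its windows with COX7C. The members bound in none of the 20 groups were all paralogs: ATPsynCF6L, ATPsynGL, ATPsynepsilonL, COX6AL, COX6CL, ND-24L, ND-49L, ND-B14.5AL and UQCR-11L. Of these 9, ATPsynCF6L, ATPsynGL, ND-24L and ND-49L had no peak in any of the 40 lists. Paralogs also stand apart from other genes more often (13 of 21, against 2 of 59 subunits), and the part of neighbouring genes in this difference was not tested.

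**Figure D2:**
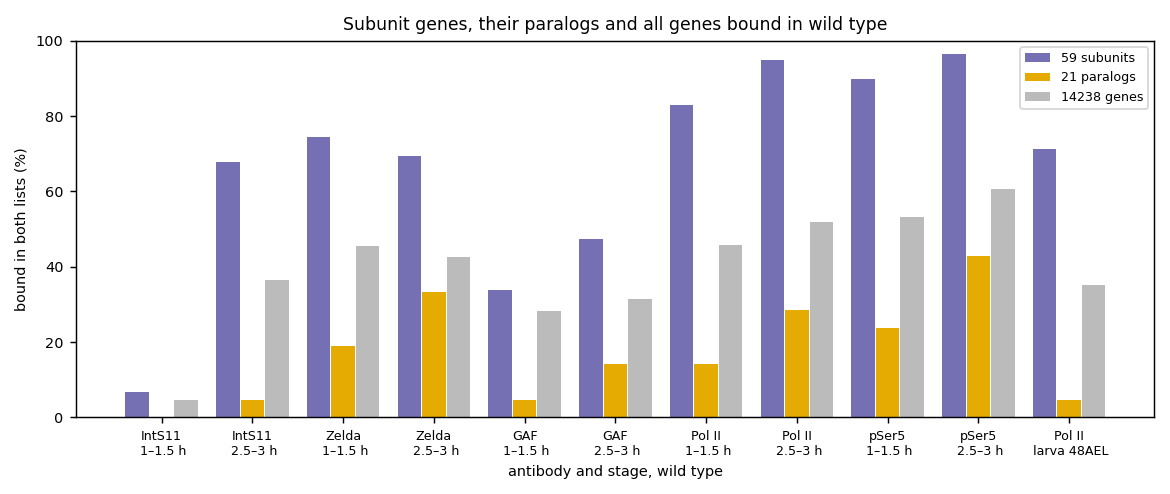
Share of 59 subunit genes, 21 paralogs and 14238 nuclear genes bound in both lists of each WT group, with the share in percent on the vertical axis. In each of the 11 groups the bar of the subunits is above that of all genes, and the bar of the paralogs is below it.

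By complex, Pol II in WT embryos at 2.5–3 h was bound at 31 of 34 complex I subunits, 6 of 6 of complex III, 8 of 8 of complex IV and 11 of 11 of complex V. At 1–1.5 h the counts were 24 of 34, 6 of 6, 8 of 8 and 11 of 11. Zelda was bound at 1–1.5 h at 8 of 8 complex IV and 10 of 11 complex V subunits, against 23 of 34 of complex I and 3 of 6 of complex III. The complex I subunits with the fewest groups were ND-B14.5A (1 of 20 groups), ND-B18 (2), ND-75 and ND-B16.6 (3 each). All of these lie on X, as does ND-MNLL, which was bound in 10 groups. ND-75, a core subunit that carries iron–sulfur clusters, had Pol II peaks of 402 and 422 bp in WT embryos at 2.5–3 h and none at 1–1.5 h.

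IntS11 itself had peaks at more of these genes at the later stage. In WT embryos IntS11 was bound at 41 members at 2.5–3 h (36.5% of all genes) and at 4 at 1–1.5 h (4.66% of all genes). The late IntS11 lists held 6065 and 6552 peaks and the early ones 1410 and 1276, and the part of list size was not tested. Of the members, 34 had a peak in both late lists and in neither early list, 4 in all 4 lists, and 0 in the early lists alone. Over all genes, 3877 were bound late alone, 657 at both stages and 1 early alone. All 41 members bound by IntS11 at 2.5–3 h were also bound there by Pol II and by pSer5, and over all genes 5019 and 5140 of 5198 were. Of the late-bound members, 40 were subunits (22 of complex I, 4 of complex III, 7 of complex IV and 7 of complex V) and 1 was a paralog, COX7AL2.

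The 4 members bound by IntS11 at both stages were ND-B17.2, ND-PDSW and ND-19, which are accessory subunits of complex I, and ATPsynC, which forms the rotating c-ring of the ATP synthase. ND-B17.2 (2L:2579201-2580172) had IntS11 peaks of 6535 and 4457 bp at 2.5–3 h, against 1124 and 386 bp at 1–1.5 h. ND-19 (2R:24664398-24665439) had 2680 and 2934 bp at 2.5–3 h, against 341 and 673 bp at 1–1.5 h. In both genes each late peak was longer than each early one. ND-PDSW had 1862 and 1692 bp at 2.5–3 h, against 593 and 688 bp at 1–1.5 h. ATPsynC (3R:31216145-31219630) had 964 and 1371 bp at 2.5–3 h, against 333 and 534 bp at 1–1.5 h. So all 4 were longer in both late lists, as were 95.1% of the genes with IntS11 peaks in all 4 lists. The windows of ND-B17.2 touch those of Elba2, a gene for a subunit of an early embryonic insulator complex.

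Polymerase peaks on most members were longer at the later stage. Of 58 members with pSer5 peaks in all 4 WT lists, 53 had longer peaks in both lists at 2.5–3 h than in either at 1–1.5 h and 0 had shorter ones, where 82.1% of all such genes were longer and 2.62% shorter. Median pSer5 length over these members was 4462.5 and 4580.5 bp at 2.5–3 h, against 1947 and 2353.5 bp at 1–1.5 h. For Pol II, 38 of 51 members were longer and 2 shorter, where 66.9% of genes were longer and 4.32% shorter. These members had a median of 1895 and 1686 bp at 2.5–3 h, against 1030 and 876 bp at 1–1.5 h. The 2 shorter ones were ATPsynG and ND-30. UQCR-C2, a core protein of complex III, had Pol II peaks of 5749 and 2190 bp at 2.5–3 h, against 708 and 460 bp at 1–1.5 h. Zelda and GAF peaks on members showed no such shift, with 11 of 42 longer and 14 shorter for Zelda (all genes 22.1% and 24.7%) and 7 of 21 longer and 5 shorter for GAF (all genes 32.2% and 17.9%). Peak length depends on depth and on the settings of the peak caller, and pSer5 peaks of up to 25888 bp span several genes. These length counts were chosen after the lists had been seen.

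The number of lists with a peak over all 5 antibodies was compared per gene between stages by a two-sided exact permutation test within antibody. At 2.5–3 h against 1–1.5 h, 0 of 72 members and 0.00% of 10288 genes passed at an adjusted p of 0.05 (Benjamini-Hochberg over all genes tested). An antibody with a peak in every list of both stages, or in none, adds nothing to this test. A gene that differs by IntS11 alone, with both late lists and neither early list, has p = 0.333 by the exact test and cannot pass. Among members 34 had this IntS11 pattern, so the absence of calls does not show that binding was alike at both stages. At an unadjusted p under 0.05, 3 members had more late lists (ND-51L1, ND-23 and COX4L) and 0 fewer, and 132 of all genes had more and 23 fewer. ND-23, a core iron–sulfur subunit, had a peak in 8 of 10 late lists, against 2 of 10 early ones (p = 0.0139 by the exact test, adjusted p = 0.796).

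In mutant embryos, peaks were absent from most members with all 4 antibodies. At 1–1.5 h Zelda was bound at 1 of 80 members in mutants (1.31% of all genes), against 48 in WT, and 47 of those 48 were lost, where 95.7% of all bound genes were. The members kept numbered 1 (2.55% of genes) and those gained 0 (0.262% of genes not bound in WT). At 2.5–3 h Zelda was bound at 4 members in mutants (4.54%), against 48 in WT, and 43 were lost (83.2% of genes), 4 kept (9.98%) and 0 gained (0.407%). GAF at 1–1.5 h was bound at 1 member in mutants (2.58%), against 21 in WT, and 20 were lost (87.9% of genes), 1 kept (8.14%) and 0 gained (0.415%). In mutants at 2.5–3 h GAF was bound at 0 members (8.72%), against 31 in WT, and 29 were lost (66.7% of genes), 0 kept (26.8%) and 0 gained (0.338%). The share of members lost was 97.9% and 89.6% for Zelda at 1–1.5 h and 2.5–3 h, and 95.2% and 93.5% for GAF, the last of these above the 66.7% of all genes. For late GAF the share lost was also above it for genes whose ends lie under 2000 bp apart (76.5%), for mitochondrial ribosomal protein genes (85.2%) and for cytoplasmic ones (87.5%), and none of these differences was tested. Stricter peak sets left fewer members bound in WT. With the longest peaks only, as many as the shortest list holds, 8 of 8 WT-bound members were lost for Zelda at 1–1.5 h (90.3% of genes), 11 of 15 for Zelda at 2.5–3 h (68.0%) and 11 of 13 for GAF at 2.5–3 h (47.7%). With peaks of at least 500 bp, 31 of 32 were lost for Zelda at 1–1.5 h (96.7%), 13 of 14 for GAF at 1–1.5 h (88.9%) and 17 of 19 for GAF at 2.5–3 h (60.5%).

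Pol II and pSer5 showed the same direction. At 1–1.5 h Pol II was bound at 9 members in mutants (6.50%), against 52 in WT, and 44 were lost (83.0% of genes) and 7 kept (12.0%). In mutants at 2.5–3 h it was bound at 3 members (1.45%), against 62 in WT, and 58 were lost (96.0% of genes), 3 kept (1.98%) and 0 gained (0.978%). The pSer5 form at 1–1.5 h was bound at 12 members in mutants (8.22%), against 58 in WT, and 42 were lost (77.1% of genes). The same form was bound at 19 members in mutants at 2.5–3 h (14.2%), against 66 in WT, and 40 were lost (65.5% of genes). These shares lie close to those over all bound genes. With pSer5, 18 members were kept at 2.5–3 h (21.9% of genes) and 11 at 1–1.5 h (12.0%), more than with any other antibody in embryos. The lists themselves did not all shrink: pSer5 lists held 11448 and 12202 peaks in mutants at 1–1.5 h, against 8340 and 9500 in WT, and Pol II lists 8821 and 8210 in mutants, against 7721 and 7096 in WT. Zelda lists at that stage held 2960 and 2584 peaks in mutants, against 11681 and 11003 in WT. Of the 8 early embryo marker genes, Pol II was bound at 6 in mutants at 1–1.5 h, against 8 in WT, and at 0 in mutants at 2.5–3 h, against 6 in WT. The part of list size, of where the listed peaks lie and of embryo stage in the losses was not tested.

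**Figure D3:**
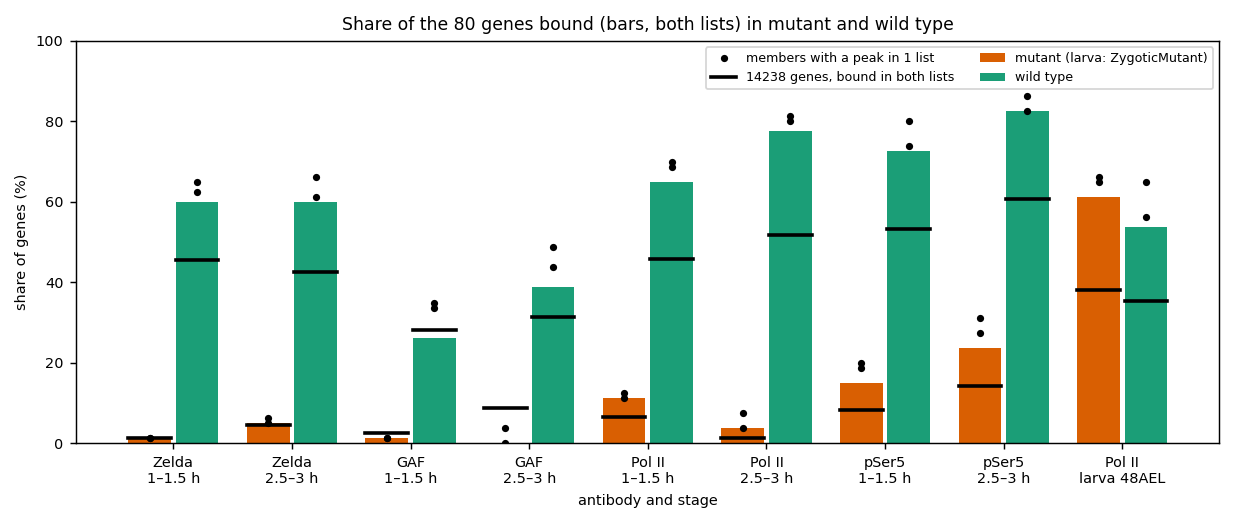
Share of the 80 members bound in both lists (bars, percent) in mutant (left bar of each pair) and WT (right bar), with each list's own share (points) and the share of 14238 genes (black lines). In embryos every mutant bar is at or below 19 of 80 members and every WT bar at or above 21, while in larvae the bars stand at 49 members in ZygoticMutant and 43 in WT. IntS11, for which only WT lists were used, is not drawn.

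Per gene, the number of lists with a peak over the 4 antibodies and both stages was compared between genotypes by a two-sided exact permutation test within antibody and stage, with Benjamini-Hochberg adjustment over all genes. The test treats antibodies as independent of one another, which lists of Pol II and of its pSer5 form need not be. Its p-values can therefore come out too small. In mutants 56 of 76 members tested had fewer lists with a peak, against 72.6% of 10729 genes, and 0 had more, against 0.587%. The median difference was -10 of 16 lists for members and -10 for all genes. The count was 51 of 59 subunits and 5 of 17 tested paralogs. By complex, with paralogs, it was 30 of 38 (I), 6 of 9 (III), 10 of 16 (IV) and 10 of 13 (V). Among subunits alone it was 29 of 34 (I), 5 of 6 (III), 7 of 8 (IV) and 10 of 11 (V). For Zelda and GAF alone 30 of 61 members passed (41.9% of genes) and for Pol II and pSer5 alone 49 of 74 (63.6%). With any 1 replicate number of 1 genotype left out, the smallest p was 0.0123, 0 genes of any kind passed for Zelda and GAF, and 28 to 31 members and 3484 to 3787 genes passed for Pol II and pSer5. With the replicate numbers as a block, 14 members (17.4% of genes) passed for Zelda and GAF, 32 (45.3%) for Pol II and pSer5 and 56 (69.8%) over 4 antibodies. The members that stand apart from other genes are mostly paralogs with few WT peaks, and 2 of the 11 tested passed over 4 antibodies, with a median difference of -2 lists.

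The members named next were picked by the size of this same difference, up to 3 per complex. Their large differences and small p-values follow from that choice and show the upper end of the change. Over all tested members, as over all genes, the median difference was -10 of 16 lists. The named members had peaks in 16 of 16 WT lists unless given otherwise. In complex I, ND-49, a core subunit at the quinone-binding site, had a peak in 0 of 16 mutant lists, against 16 WT lists (adjusted p = 1.49e-05, exact test). ND-15 and ND-MNLL, both accessory subunits, had a peak in 1 mutant list each (adjusted p = 2.43e-05, exact test). The WT Pol II peaks of ND-49 (4:568296-571554) measured 1950 and 1477 bp at 1–1.5 h and 2473 and 2233 bp at 2.5–3 h. The 16 mutant embryo lists had none, while ZygoticMutant larvae had Pol II peaks of 809 and 742 bp, against 1158 and 753 bp in WT larvae.

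In complex III, UQCR-Q had a peak in 0 mutant lists, UQCR-6.4 in 0 against 15 WT lists, and UQCR-14 in 0 against 11. UQCR-Q (3L:17474761-17476124) had WT Zelda peaks of 575 and 401 bp at 1–1.5 h and of 638 and 615 bp at 2.5–3 h. UQCR-14 passed with an adjusted p of 0.000297 by the exact test. In complex IV, COX7B and COX7AL2 had a peak in 0 mutant lists and COX7C in 1. COX7B (3L:17425477-17426282) had WT GAF peaks of 525 and 446 bp at 1–1.5 h, and none in mutants. In complex V, ATPsynbeta, the catalytic subunit, and ATPsynD, of the peripheral stalk, had a peak in 0 mutant lists, and ATPsyndelta, of the central stalk, in 0 against 15 WT lists. ATPsynbeta (4:1031484-1034917) had WT pSer5 peaks of 11200 and 11746 bp at 1–1.5 h and of 13732 and 13832 bp at 2.5–3 h, and none in mutants. For UQCR-Q, COX7B, COX7AL2, ATPsynbeta and ATPsynD, as for ND-49, every WT list and no mutant embryo list had a peak. The share of all genes with this pattern was not counted, so it is not shown to be particular to these members. In the same test 72.6% of 10729 genes passed with fewer mutant lists.

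The subunits that did not pass the test were 8. ATPsyngamma had a peak in 14 mutant lists, against 16 WT lists (adjusted p = 0.380, exact test), and ND-B17.2 in 9, against 14 (adjusted p = 0.0562). COX6B had 6 mutant lists, against 10 WT lists, ND-MLRQ 4 against 8, UQCR-11 2 against 6 and ND-AGGG 2 against 2. ND-B14.5A and ND-75 had 0 mutant lists, against 5 and 4 WT lists.

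ATPsyngamma, the rotating shaft of the ATP synthase, was the 1 member kept for Zelda and for GAF at 1–1.5 h. It was also kept for Zelda, Pol II and pSer5 at 2.5–3 h and for Pol II and pSer5 at 1–1.5 h, and was lost for GAF at 2.5–3 h. With 18 of 20 groups it was the most widely bound member, and no member was bound in all 20. The gene (3R:29747704-29749163) lies between IntS11, the gene under study (3R:29745337-29747513), and yata (3R:29749219-29754528), and its windows touch those of both. In mutants the Pol II peaks at 1–1.5 h ran over 3R:29747861-29748359 and 3R:29747976-29748328, inside ATPsyngamma. In WT they ran over 3R:29748589-29749539 and 3R:29748639-29749646, across the gap to yata, and shared no base with the mutant peaks.

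How far mutant and WT peaks lay apart differed between antibodies and stages. The mutant Zelda peaks at 2.5–3 h began at 29747935 and 29747655 and ended at 29748365 and 29748362, and shared no base with the WT peaks, which began at 29748809 and 29748767. For Pol II at 2.5–3 h 1 of 4 pairs of mutant and WT lists had peaks that shared a base, for pSer5 3 of 4 at 1–1.5 h and 4 of 4 at 2.5–3 h, where the WT peaks run over the whole gene, and for Zelda at 1–1.5 h 4 of 4, through peaks over IntS11. Over Zelda, Pol II and pSer5 in mutants, 12 peaks lay on ATPsyngamma within its windows, and they began between 29747590 and 29747976 and ended between 29748023 and 29748692. On the other side, mutant lists of these antibodies held further peaks inside IntS11, such as 3R:29745786-29747293 for Zelda in replicate 1 at 1–1.5 h. The kept GAF call rests on peaks over IntS11 alone, at 3R:29745474-29747343 and 3R:29745447-29747389 in mutants, which do not reach ATPsyngamma. WT GAF lists had such a peak too, at 3R:29745448-29747411 in replicate 1, and at 2.5–3 h both WT lists and neither mutant list did. In ZygoticMutant larvae the Pol II peaks lay at 3R:29748648-29749240 and 3R:29748623-29749447, over those of WT larvae at 3R:29748645-29749301 and 3R:29748714-29749118. What the mutant carries at this locus is not given in the sources used here, and its part in these peaks was not tested. This gene was singled out after its values were seen.

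**Figure D4:**
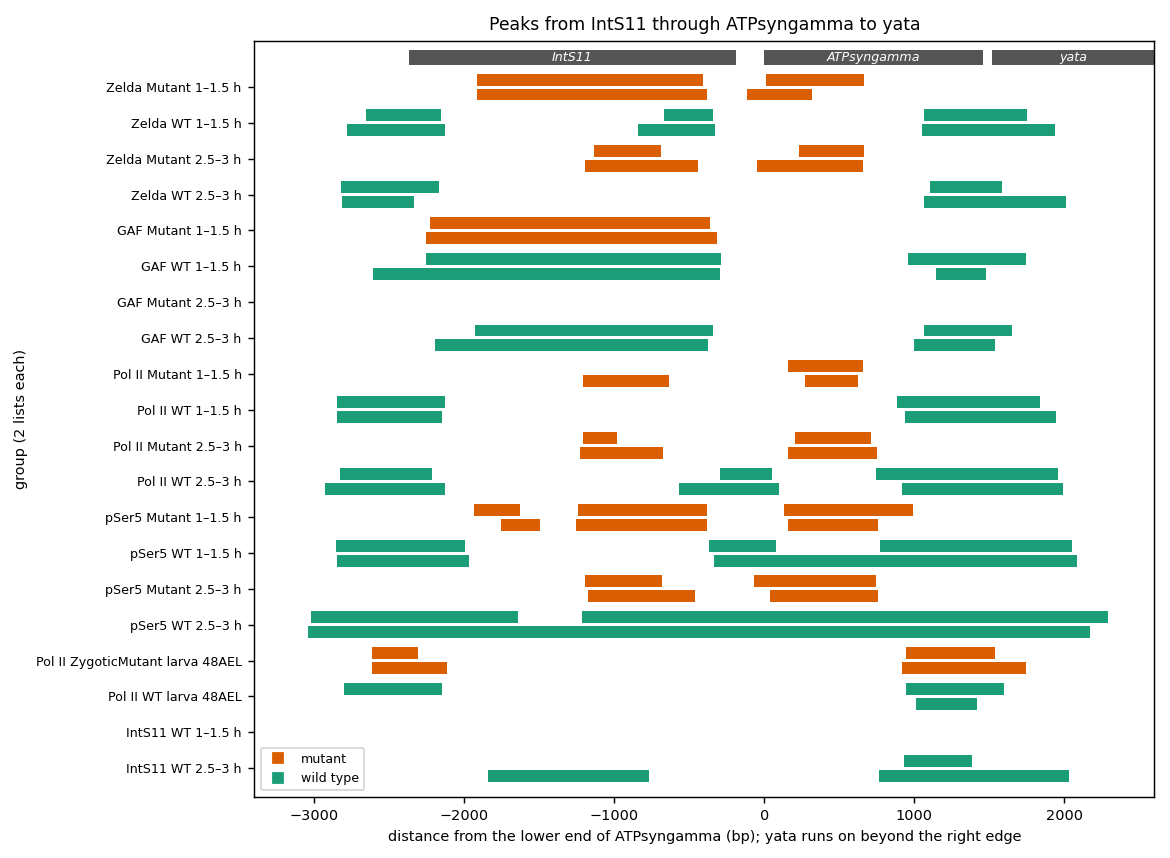
Peaks of each list (bars, 2 rows per group) on the stretch from IntS11 through ATPsyngamma to yata, against distance in bp from the lower end of ATPsyngamma. Mutant embryo peaks (orange) lie inside IntS11 and, but for GAF, in or just before the first part of ATPsyngamma. Each WT group but early IntS11 (green) has peaks at the border of ATPsyngamma and yata, as do ZygoticMutant larvae, and some WT groups also have peaks over IntS11.

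A further 6 members were kept for Pol II at 1–1.5 h, namely UQCR-11, ND-B17.2, ND-B17, ND-19, ND-MLRQ and ATPsynC. ND-B17.2 had Pol II peaks of 2802 and 2925 bp in mutants, against 4326 and 4240 bp in WT. ND-B17 (2L:15749319-15751078), an accessory subunit next to a gene for the U5 spliceosomal RNA (snRNA:U5:35D), had 2313 and 2497 bp in mutants, against 1092 and 2135 bp in WT. ND-19, between 4 close neighbours, had 2028 and 2237 bp in mutants, against 2345 and 2377 bp in WT. These 3 complex I genes were also the members other than ATPsyngamma kept for Zelda at 2.5–3 h. ND-19 and ND-B17 were lost for Pol II at 2.5–3 h, and ND-B17.2 had a Pol II peak in 1 mutant list there, against both WT lists.

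UQCR-11 (3L:25120709-25126171), ND-MLRQ (3L:23339326-23345936) and ND-AGGG (3L:24976254-24977118) are the 3 members on 3L beyond position 23000000. Beyond this position lay 78.3% and 80.0% of the 3L Pol II peaks of the mutant lists at 1–1.5 h, against 1.62% and 1.79% of those of the WT lists. UQCR-11 had Pol II peaks of 5915 and 3332 bp in these mutants, against 913 and 854 bp in WT. ND-MLRQ, whose human counterpart was later assigned to complex IV, had 1128 and 546 bp in mutants, against 641 and 310 bp in WT. ND-AGGG, an accessory subunit, was the 1 member gained for Pol II at 1–1.5 h (1.58% of genes not bound in WT), with mutant peaks at 3L:24972261-24975916 and 3L:24975317-24976128 that do not reach the gene itself. UQCR-11 and ND-MLRQ were lost for Pol II at 2.5–3 h, where 80.5% and 71.9% of the mutant 3L Pol II peaks lay beyond 23000000. The part of this stretch of 3L in the early calls was not tested.

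Pol II was kept at 3 members at 2.5–3 h, of which 1 had mutant peaks on the gene itself, ATPsyngamma. At COX6B (X:19740537-19744335), an intermembrane-space subunit, the mutant Pol II peaks at X:19744819-19745542 and X:19744753-19745542 lay wholly beyond the gene, over CG33932 and Rpp20. At ATPsynF (2R:24599088-24599821) the mutant peaks lay over the neighbours CG13587 and CG3548 and shared no base with the WT peaks. When a peak had to overlap the gene itself, 1 member was bound by Pol II in mutants at 2.5–3 h, against 61 in WT. Of those 61, 59 were lost, where 91.7% of all genes bound in WT under this setting were.

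For pSer5 at 1–1.5 h the 5 kept members with the longest mutant peaks were ND-B8, ND-B12, COX6B, ATPsyngamma and ND-B17.2. ND-B8 had 1786 and 1795 bp in mutants, against 1174 and 2515 bp in WT, and ND-B12 had 781 and 1437 bp in mutants, against 1840 and 2132 bp in WT. The 5 at 2.5–3 h were ND-19, ND-B17.2, UQCR-C2, ATPsynC and ND-PDSW. ND-19 had 4204 and 4225 bp in mutants, against 8946 and 4009 bp in WT. UQCR-C2 had 2201 and 2154 bp in mutants, against 25888 and 25751 bp in WT, and ATPsynC had 1749 and 1785 bp in mutants, against 12692 and 13134 bp in WT. At COX4 the mutant peaks of 470 and 290 bp fell between the WT peaks and shared no base with them. Where pSer5 was kept, 17 of 18 members at 2.5–3 h and 8 of 11 at 1–1.5 h had peaks that overlapped in every pair of mutant and WT lists. The share of all kept genes with such overlap was not counted. WT pSer5 peaks of up to 25888 bp can take in any mutant peak near a gene, so the overlap does not show that peaks kept their place. The gained members were UQCR-14L at 1–1.5 h (3.53% of genes not bound in WT), whose mutant peaks lie over its neighbour Mst98Cb, and ND-51L2 at 2.5–3 h (2.22%), with 1102 and 1125 bp in mutants and none in WT.

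In larvae Pol II peaks were present on these genes in both genotypes. Pol II was bound at 49 members in ZygoticMutant larvae (38.2% of all genes) and at 43 in WT larvae (35.3%). Of those 43, 0 were lost (2.63% of genes) and 41 kept (88.2% of genes). The mutant and WT peaks overlapped in every pair of lists at 40 of the 41, and the share of all kept genes with such overlap was not counted. The kept members with the longest mutant peaks were ATPsynC, ND-AGGG, ATPsynbeta, COX8 and COX7C. ATPsynC had 3610 and 4114 bp in ZygoticMutant larvae, against 3528 and 3575 bp in WT larvae. ND-AGGG had 2620 and 3514 bp, against 2364 and 1869 bp in WT larvae. For both, each mutant peak was longer than each WT one, which was so for 10 of the 41 members and 19.1% of genes, while 4 members and 14.7% of genes had shorter ones. With 2 lists against 2 no gene can fall below p = 0.333 in an exact test, so none was tested.

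The 2 members gained in ZygoticMutant larvae (3.51% of genes not bound in WT larvae) were ND-18 and ND-75, both on X. ND-18, an accessory subunit whose human counterpart NDUFS4 is known from Leigh syndrome, had Pol II peaks of 558 and 315 bp in ZygoticMutant larvae and none in WT larvae. ND-75 had 347 and 473 bp in ZygoticMutant larvae, at opposite ends of the gene (X:8251534-8251880 and X:8248114-8248586), and none in WT larvae. For each gene 1 of the 2 mutant peaks touched the gene itself. Of 5 muscle marker genes, Pol II was bound at 5 in ZygoticMutant larvae, against 3 in WT larvae, and the part of muscle in the larval calls was not tested. Larval counts depend on single lists, since 1 or 2 members were lost when either ZygoticMutant list or WT replicate 2 was left out.

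Between stages of WT, Pol II was bound at 43 members in larvae and at 62 in embryos at 2.5–3 h. Of those 62, 11 were lost in larvae (25.2% of genes) and 42 kept (56.6% of genes), and ND-AGGG was gained (11.1% of genes not bound in late embryos). The lost ones were COX4L, COX5BL, ND-18, ND-19, ND-20, ND-24, ND-51L1, ND-75, ND-ASHI, ND-B15 and ND-B16.6, which are 9 complex I genes and 2 complex IV paralogs. Among them ND-18, ND-20, ND-24, ND-75, ND-ASHI and ND-B16.6 lie on X, which holds 12 of the 80 members. ATPsyndelta, COX6B, ND-MNLL and UQCR-14, also on X, were kept. The share of all X genes lost was not counted, and the part of the X chromosome was not tested. Without WT larva replicate 1, which held 8196 peaks against 5694 in replicate 2, 19 were lost, and with peaks of at least 500 bp 23 of 60 were (40.0% of genes). Over members with peaks in all 4 lists, larval peaks were shorter at 34 of 42 (77.9% of genes) and longer at 3 (6.28%). ATPsynC was longer, with 3528 and 3575 bp in larvae, against 2414 and 1932 bp in late embryos, as were ATPsynG and ATPsynCF6. ND-B17.2 was shorter, with 400 and 387 bp in larvae, against 7493 and 6199 bp in late embryos.

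Other genes of energy metabolism were counted in the same 4-antibody test, in which 72.6% of all genes tested passed with fewer mutant lists. Of 9 subunits and electron carriers named otherwise (blw, sun, levy, cype, Cyt-c1, RFeSP, ox, Cyt-c-p and Cyt-c-d), 9 passed with fewer. So did 4 of 5 tested complex II genes, 10 of 11 of the tricarboxylic acid cycle, 5 of 6 mitochondrial regulators and 2 of 2 assembly genes. Of 73 mitochondrial ribosomal protein genes 65 passed with fewer, and of 89 tested cytoplasmic ribosomal protein genes 85. In all 7 lists 0 genes passed with more. The share kept by pSer5 at 2.5–3 h in mutants was 18 of 66 members, 16 of 71 mitochondrial and 56 of 87 cytoplasmic ribosomal protein genes, against 21.9% of all genes. In ZygoticMutant larvae Pol II was kept at 85 of 85 cytoplasmic and 28 of 33 mitochondrial ribosomal protein genes, against 88.2% of all genes.

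The 3 mitochondrial members lie at MT:1474-3009 (COX1), MT:3083-3767 (COX2) and MT:4736-5524 (COX3), and encode the catalytic core of complex IV. In every WT list of all antibodies, peaks covered all 1536 bp of COX1, 685 bp of COX2 and 789 bp of COX3. In mutant embryos 0 bp of the mitochondrial genome were under peaks for Zelda and pSer5 at both stages and for GAF and Pol II at 1–1.5 h. The WT lists of these groups covered 13672 to 19518 bp. GAF at 2.5–3 h covered 7237 and 7443 bp in mutants, against 16380 and 17176 bp in WT. Pol II at 2.5–3 h covered 15361 and 15341 bp in mutants, against 12706 and 15057 bp in WT. Here both mutant lists were higher, though close to WT replicate 2 (15057 bp). In larvae Pol II covered 15028 and 15037 bp in ZygoticMutant animals, against 14410 and 14652 bp in WT. Whether these peaks were called against a control library is not given in the sources used here, and the share of mitochondrial reads per library is unknown, so the part of both was not tested.

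**Figure D5:**
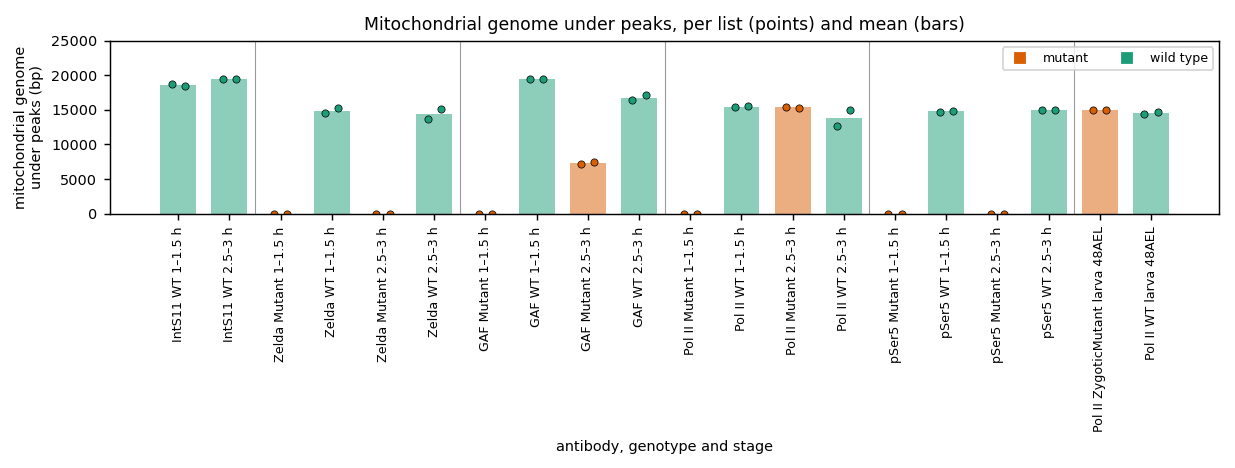
Base pairs of the mitochondrial genome under peaks in each list (points) and their mean (bars) in the 20 groups, mutant left of WT. Mutant embryo lists stand at 0 bp except GAF and Pol II at 2.5–3 h, and all WT lists stand at 12706 bp or above.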

How the data were processed

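Peak lists of 40 of the 76 samples were used, and the other 36 samples were not analysed here. The deposited lists give chromosome, start and end of each peak on build dm6, and these positions, made by the authors, are the only values, with no height or read count (their unit is other than the usual ones). Tools named in the submitters' processing notes are MACS2 2.2.7.1, Trimmomatic 0.39, SAMtools 1.18, deepTools 3.5.1 and Bowtie2 2.2.5; their order and thresholds are not given in the sources used here. Whether peaks were called against the input libraries is not given in the sources used here. Depth is unknown.

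Gene positions were read from RefSeq's Release 6 fly table, which lacks strand, exons and sequence, so both ends of each gene were used. Of the genes, 14238 lie on 2L, 2R, 3L, 3R, 4, X or Y. A peak of 1 bp or more within 500 bp of an end counted. Groups were compared by lists with a peak per gene, with exact permutation within antibody and stage, Benjamini-Hochberg adjustment over all genes with a peak and a threshold of 0.05. The smallest p is 1.19e-06 over 4 antibodies, 0.00154 over 2 and 0.000257 between stages. Each can be reached only by a gene with peaks in all lists of the first side and none of the second, or the reverse. The test was also run on simulated lists drawn independently of one another. That run does not gauge how dependence between antibodies or duplicates affects the p-values. Named genes were up to 3 per complex by size of the difference, those bound by early IntS11, up to 5 kept or gained per comparison by mutant peak length, those bound in no group, paralogs and larval changes; genes named for other reasons (length examples, uncalled subunits, ATPsyngamma) were picked after their values were seen. The member genes and the other gene lists were chosen with earlier results of these data known. Alternatives were 250 bp windows, 100 bp overlap, peaks of at least 500 bp, only the longest peaks, as many as the shortest list holds, joined intervals, members apart from other genes, left-out replicates, a replicate block and, chosen after seeing the data, overlap with the gene itself. Python 3.11.15, numpy 2.4.6, pandas 2.3.3, scipy 1.17.1 and matplotlib 3.10.9 were used.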

Additional observations from a re-analysis of the deposited data

Results flagged for a closer look

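The change in mitochondrial genome under Pol II peaks had opposite signs at the 2 embryonic stages, but was small at 2.5–3 h. In mutants 15361 and 15341 bp were covered at 2.5–3 h, against 12706 and 15057 bp in WT, and 0 bp at 1–1.5 h in both mutant lists, against 15490 and 15492 bp in WT. The mean change, mutant minus WT, at 2.5–3 h exceeded that at 1–1.5 h by 16960.5 bp. Most of this gap is the absence of mutant peaks at 1–1.5 h. At 2.5–3 h the mutant lists lay close to WT replicate 2 (15057 bp), and only WT replicate 1 (12706 bp) was clearly lower. The change in larvae, ZygoticMutant minus WT, exceeded that at 1–1.5 h by 15992.5 bp. Neither difference was tested, and the larval genotype is not the embryonic one.

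ND-18 had Pol II peaks in 2 ZygoticMutant larva lists, against 0 WT larva lists, and in 0 mutant embryo lists, against 2 WT lists, at both embryonic stages, a difference of 4 lists at each. ND-75 showed the same contrast between larvae and embryos at 2.5–3 h, also 4 lists. These were not tested.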

How the results depend on the processing

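Windows of 250 bp, an overlap of 100 bp and joined intervals kept each count that answers a comparison within 1.5 times the value given, and no value reversed. With peaks of at least 500 bp, members lost were 31 of 32 bound in WT (Zelda 1–1.5 h), 13 of 14 and 17 of 19 (GAF 1–1.5 h and 2.5–3 h) and 23 of 60 (larva against late embryo). With only the longest peaks, as many as the shortest list holds, they were 8 of 8 and 11 of 15 for Zelda at 1–1.5 h and 2.5–3 h and 11 of 13 for GAF at 2.5–3 h, and the test called 5 members for Zelda and GAF (10.3% of genes). Fewer WT peaks enter by construction. The 15 members apart from other genes are a small subset with few WT peaks, of which Zelda lost 1 of 1 and 4 of 4, Pol II 0 of 1 and 3 of 3, and pSer5 1 of 1 and 2 of 3 at 1–1.5 h and 2.5–3 h. GAF lost 0 of 0 and 2 of 2, and larva against late embryo 2 of 3, while the tests called 2 (4 antibodies), 0 (Zelda and GAF) and 1 (Pol II and pSer5). With overlap of the gene itself, chosen after seeing the data, 1 of 42 was lost in ZygoticMutant larvae. Leaving out replicates gave 0 to 2 lost in ZygoticMutant larvae, 12 to 19 between larva and late embryo, 28 to 31 calls for Pol II and pSer5 (35.7% to 38.6% of genes), and 50 to 52 over 4 antibodies (64.9% to 66.2% of genes). For Zelda and GAF it gave 0 calls among all genes, which says nothing of the members. With a replicate block 14 members were called for Zelda and GAF (17.4% of genes), 32 for Pol II and pSer5 (45.3%), 56 over 4 antibodies (69.8%) and 0 between stages. A gene that differs between stages by IntS11 alone cannot be called there. Between compared groups, the differences of replicate 1 minus replicate 2 were correlated over genes at -0.0245 to 0.00961. What lists of the same number share is not given in the sources used here. A window at the 5′ end alone was not run, since strand was not at hand. Depth is unknown, so an absent peak does not show absent binding.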
